A study of Mus musculus with 16 samples.

Results

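Nuclear genes for subunits of respiratory complexes II, III and IV and of the ATP synthase, complex V, made up 43 of the 9846 named genes measured in mouse kidney on cDNA arrays. A gene was included when its probe carried a single platform symbol that was Sdha to Sdhd, Cyc1 or Cycs, or that began with Uqcr, with Cox and a digit from 4 to 8, or with Atp5; complex I genes were left out. The 43 genes were covered by 62 probes, 4 genes in complex II, 8 in complex III, 16 in complex IV and 15 in complex V. Cycs, Uqcrb, Cox4i2, Cox7a2l, Atp5g1, Atp5g2 and the subunits encoded by mitochondrial DNA were not analysed here.

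Kidney RNA of 4 male MFP2-/- mice was hybridised, each mouse separately, against RNA of 1 pool of 5 male wt mice of the Swiss strain SWR/Ola Hsd, all 15 weeks old. Hsd17b4 encodes MFP2, a multifunctional enzyme that breaks down fatty acids in peroxisomes. Each mouse had 4 two-channel arrays, 2 repeats with the mutant in Cy5 and 2 with the mutant in Cy3, 16 arrays in all, with values for 19737 to 20228 of 20355 probes. The labels give no background strain for the mutants, and title and source name of mouse 1 differ in 1 digit although its mouse ID is the same on its 4 arrays. The pool is 1 control sample, so the spread between wild-type animals was not measured and every test against it leaves that spread out. The 2 probes named Hsd17b4 disagreed. In mice 1 to 4 the log2 ratio was 0.018, 0.83, 0.34 and 0.52 for the first and, for the other, -1.69, -1.50, -0.10 and -0.34, and their place relative to the deleted part is not known from the labels or files used here. Ratios hold no level per tissue, so the kidney label could not be checked against marker levels. In whole tissue, fewer cells of a type and less RNA per cell cannot be told apart.

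All values below are log2 ratios, read as mutant over pool, with each array's median set to 0. No label or header used here states the direction, log base or normalisation of the deposited ratios. Direction and base were inferred, as described with the processing. A value per mouse is the mean of its 4 arrays, balanced over both dyes, and errors are the SD over 4 mice. Intervals are 95% intervals from limma's moderated standard error, which draws on the spread of all rows. They can be narrower than the SD printed beside them would give, and are not adjusted for the number of rows.

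Complex II, succinate dehydrogenase, passes electrons from succinate of the citric acid cycle to ubiquinone. Complex III hands them on to cytochrome c, and complex IV, cytochrome c oxidase, transfers them to oxygen. Complexes III and IV pump protons across the inner mitochondrial membrane, and complex V uses the returning protons to make ATP. In the kidney this machinery is dense in the proximal tubule and the thick ascending limb, whose salt transport depends on ATP.

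Nuclear respiratory factor 1 (NRF1), ETS factors such as GABP, estrogen-related receptors (ERR) and YY1 are known to bind promoters of many of these genes. Stretches that hold the letters of their motifs are shown as background, and a link between the motifs and the ratios was not tested. RefSeq windows of 300 bases, 250 before and 50 after the start of a gene, matched 33 of the 43 genes in assembly GRCm38.p6 (10 had no entry). Both strands were searched. GCGCANGCG (NRF1) stood in 11 of the 33 genes, 33.3%, and in 7.03% of all 27025 genes with a window (6.25% of 32851 windows). CCGGAAG (ETS) stood in 13, 39.4%, against 9.93% of genes (8.86% of windows). TCAAGGTCA (ERR) stood in 2, Atp5g3 and Sdhd, 6.06% against 0.466% of genes (0.423% of windows), and AAGATGGCG (YY1) in 2, Atp5j and Atp5j2, 6.06% against 1.64% of genes (1.4% of windows). At least 1 of the 4 stood in 19 of the 33 genes. The stretches below run 5′ to 3′ up to the base before the start. Letters of motifs that lie wholly inside a stretch, on either strand, are in capitals. In Uqcr11 an NRF1 match that crosses the start stays in lower case. A match describes letters and is no evidence of binding.
Sdhd, chr9:50603850-50603949, minus strand: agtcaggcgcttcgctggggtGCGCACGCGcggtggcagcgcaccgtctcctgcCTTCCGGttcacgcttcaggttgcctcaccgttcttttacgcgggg
Uqcr11, chr10:80406822-80406901, minus strand: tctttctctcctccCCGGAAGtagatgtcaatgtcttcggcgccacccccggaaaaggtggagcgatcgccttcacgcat
Cox6a1, chr5:115348959-115349138, minus strand: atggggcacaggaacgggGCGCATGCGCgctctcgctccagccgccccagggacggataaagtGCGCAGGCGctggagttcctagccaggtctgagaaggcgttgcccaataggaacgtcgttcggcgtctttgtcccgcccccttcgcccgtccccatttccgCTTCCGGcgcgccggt
Atp5g3, chr2:73911327-73911406, minus strand: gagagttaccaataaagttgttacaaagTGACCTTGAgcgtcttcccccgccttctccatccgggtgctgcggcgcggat
Atp5j, chr16:84834977-84835076, minus strand: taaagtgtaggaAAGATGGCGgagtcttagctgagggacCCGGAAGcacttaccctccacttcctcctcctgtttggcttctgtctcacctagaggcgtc
Sdhd, a membrane anchor of complex II, thus holds an NRF1 and an ETS match within 100 bases of its start, and Cox6a1 holds 2 NRF1 matches, of which 1 is palindromic, and an ETS match. Of the 8 members with the smallest p-values against the pool, described below, 6 had a window, and 2 of these, Sdhd and Atp5o, held one of the 4 motifs.

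Against the wild-type pool, the ratios of the 43 genes lay above 0 more often than not, and by little. The mean over mice was above 0 for 37 of 43 genes, where 50.1% of all 16140 rows of the table were, and the median member had 0.16 against 0.0004 over all rows. The 43 means ran from -0.12 for Sdha to 0.39 for Atp5md. In mice 1 to 4 the median member had 0.0018, 0.36, 0.068 and 0.20. The median was thus near 0 in mouse 1, small in mouse 3 and clearly above 0 in mice 2 and 4. Among all rows of the same mouse it ranked at the percentiles 49, 88.4, 67.2 and 88.

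No member passed the test against the pool (limma, Benjamini-Hochberg over 16140 rows at 0.05), and no row of the table did, which is 0% called. The smallest adjusted p of a member was 0.548 and the smallest of any row 0.327. At an unadjusted p under 0.05 the members were 8 higher and 0 lower, 18.6% higher, where 5.83% of all rows were higher (941) and 3.21% lower (518). The members' counts at that p were 9 higher and 2 lower when the ratios are read as Cy5 over Cy3. They were 19 and 2 with the mutant in Cy5 alone, and 4 and 1 with the mutant in Cy3 alone. No share of all rows at that p is given for these settings, so these counts have no background beside them. Ratios were above 0 in every mouse for 13 members, 30.2%, against 10.2% of rows, and below 0 in every mouse for 0 members, against 9.41% of rows. The members were picked with earlier results known, so these shares are a description.

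The positive median rested on mouse 2 to a large part. Without it the median member had 0.077, with 36 of 43 genes above 0, against 51.8% of rows. The count at an unadjusted p under 0.05 was then 4 higher and 1 lower. Without mouse 4 that count was 0, and without mouse 1 it was 12 higher. For these counts at that p, no share of all rows is given. With all 16 arrays fitted and the mouse as a random block, 221 rows passed, among them 2 of the 43 members. Cox4i1 had an adjusted limma p of 0.0424 and Cox7b one of 0.0435. That fit used 1 correlation within mice for all rows, estimated at 0.036. It thus counted the arrays of 1 mouse almost as independent replicates, although they share its RNA, and these p-values leave out much of the spread between mice. Read as Cy5 over Cy3, the median member was 0.081, and 33 of 43 genes lay above 0, against 45.6% of rows. In mice 1 to 4 the median was then 0.18, -0.0063, 0.071 and 0.11, so that mouse 1 was highest and mouse 2 lowest.

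**Figure D1:**
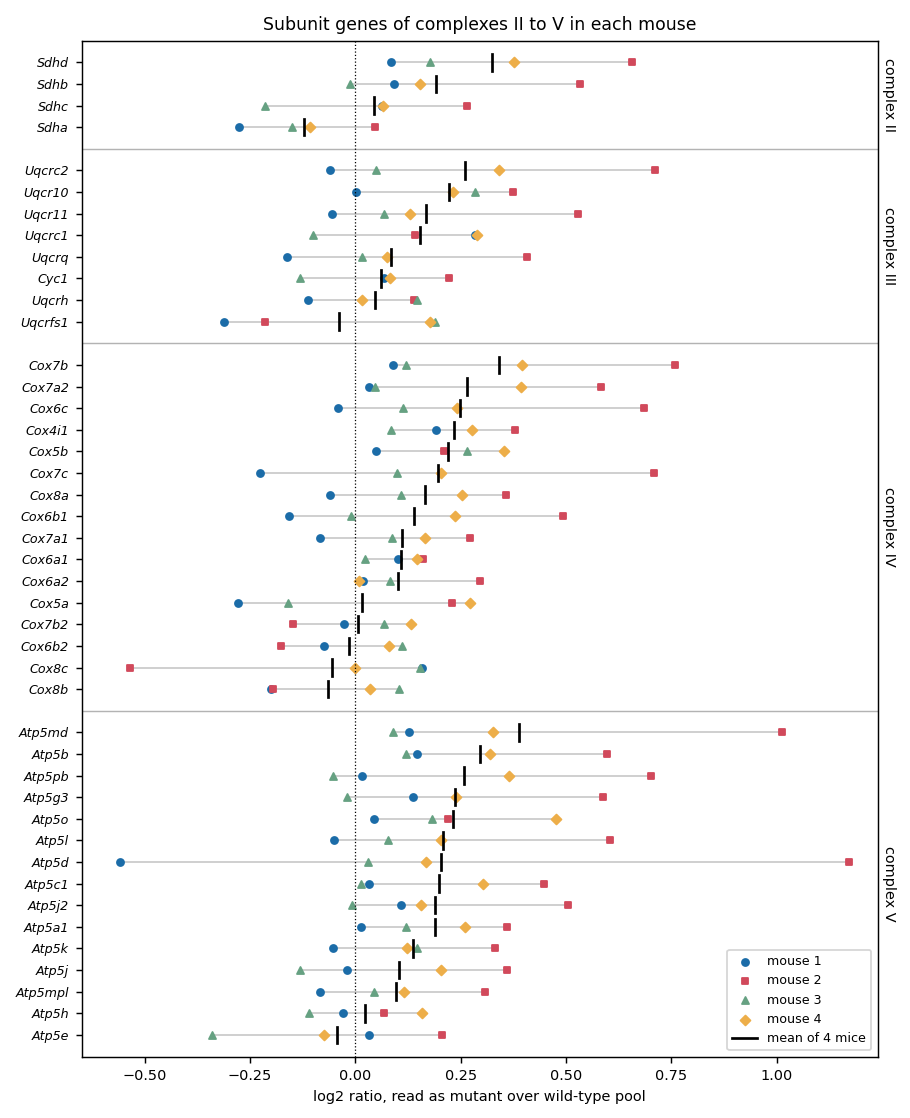
Log2 ratio (x axis, read as mutant over wild-type pool, array median 0) of each of the 43 genes in mice 1 to 4 (coloured points), ordered by complex and by mean; black bars are means over the 4 mice. Mouse 2 (squares) is the highest point for 32 of 43 genes and mouse 1 (circles) the lowest for 24; read as Cy5 over Cy3, mouse 1 would be highest for 23 and mouse 2 lowest for 23.

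Complex II had 1 anchor gene above 0 in every mouse and its catalytic gene below 0 in the mean. Its median was 0.12, with 0.074, 0.40, -0.082 and 0.11 in mice 1 to 4. Sdhd, which helps bind ubiquinone in the membrane, had 0.085, 0.66, 0.18 and 0.38 in the 4 mice, 0.32 ± 0.25, with a 95% interval of 0.066 to 0.58 and an adjusted limma p of 0.548. All 4 mice were above 0 and mouse 2 was highest. Sdhb, the iron-sulfur subunit, had 0.091, 0.53, -0.014 and 0.15, a mean of 0.19 ± 0.24. Sdhc, the other membrane anchor, had 0.063, 0.27, -0.22 and 0.066, a mean of 0.045 ± 0.20, with mouse 3 alone below 0. Sdha, the flavoprotein that oxidises succinate, had -0.28, 0.047, -0.15 and -0.11, a mean of -0.12 ± 0.13. Sdha was above 0 in mouse 2 only, yet its interval of -0.30 to 0.053 included 0. It was measured on 15 arrays, which ran from -1.185 to 0.465. With the median over the arrays of a mouse in place of the mean, Sdha had -0.010. Its mean, the lowest of the 43 genes as read here, was -0.30 with the mutant in Cy5 and 0.052 with the mutant in Cy3. Read as Cy5 over Cy3 it was -0.17, with Cox7b2 at -0.88 and Cox8c at -0.59 below it. In that reading Sdhd had -0.0091 and the median of the complex was -0.036. Without mouse 2 that median was 0.024, and without mouse 3 it was 0.20.

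Complex III had 7 of 8 genes above 0, with the Rieske gene as the exception. Its median was 0.12, with -0.058, 0.30, 0.059 and 0.15 in mice 1 to 4, and 0.033 without mouse 2. Uqcr10, a small subunit, had 0.0018, 0.38, 0.28 and 0.23, a mean of 0.22 ± 0.16 with an interval of 0.032 to 0.41. It was near 0 in mouse 1 and above it in mice 2 to 4, but not on every array. Its mean was 0.42 with the mutant in Cy5 and 0.027 with the mutant in Cy3. In mouse 4 its arrays ran from -0.60 to 0.88. Uqcrc2, 1 of the 2 large core subunits, had -0.061, 0.71, 0.050 and 0.34, a mean of 0.26 ± 0.34. Uqcrc1, the other core subunit, had 0.28, 0.14, -0.10 and 0.29, a mean of 0.15 ± 0.18. By these values the core subunits differed in their order of mice: mouse 2 was highest for Uqcrc2, while mice 1 and 4 were highest for Uqcrc1. Arrays of mouse 1 ran from -0.18 to 0.68 for Uqcrc1, and the difference in order was not tested. Uqcr11, another small subunit, had -0.055, 0.53, 0.068 and 0.13, a mean of 0.17 ± 0.25. At the low end, Uqcrfs1, the Rieske iron-sulfur protein, had -0.31, -0.22, 0.19 and 0.18, a mean of -0.040 ± 0.26. Mice 1 and 2 were below 0 and mice 3 and 4 above it, a split that no other gene of complex III showed. Uqcrh, the hinge protein at the cytochrome c site, had -0.11, 0.14, 0.15 and 0.015, a mean of 0.047 ± 0.12, and Cyc1, cytochrome c1, had 0.068, 0.22, -0.13 and 0.081, a mean of 0.060 ± 0.15. Uqcrq, the ubiquinone-binding small subunit, had a mean of 0.083 ± 0.24. With the mutant in Cy3 alone the median of the complex was -0.026, with 4 of 8 genes above 0, and with the mutant in Cy5 it was 0.25, with 8 of 8.

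Complex IV holds common subunits and isoforms of other tissues. The 10 subunits that kidney is known to use were all above 0, with a median of 0.21, and the 6 isoforms known from heart, skeletal muscle or testis were 3 above and 3 below, with a median of -0.0045. Over all 16 genes the median was 0.13, 0.074 without mouse 2 and 0.21 without mouse 1. Cox4i1, a regulatory subunit that binds ATP, had 0.19, 0.38, 0.085 and 0.28 in mice 1 to 4, a mean of 0.23 ± 0.13 and the smallest unadjusted limma p of all members, 0.0157 (adjusted 0.548). With its 4 probes averaged, all 4 mice were above 0 and 14 of 16 arrays were. Cox5b, a subunit on the matrix side, had 0.049, 0.21, 0.27 and 0.35, a mean of 0.22 ± 0.13, with mouse 4 highest. Its arrays of mouse 2 ran from -0.81 to 0.70, so its order of mice is uncertain. Cox7b, a small membrane subunit, had 0.090, 0.76, 0.12 and 0.40, a mean of 0.34 ± 0.31, and Cox7a2, the common isoform of subunit 7a, had 0.033, 0.58, 0.046 and 0.39, a mean of 0.26 ± 0.27. For both, mice 2 and 4 were above mice 1 and 3. Read as Cy5 over Cy3, Cox4i1 had 0.0095 and Cox5b -0.0092, while Cox7b had 0.10.

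Cox6c, Cox7c, Cox8a, Cox6b1, Cox6a1 and Cox5a, the rest of the 10, had means of 0.25, 0.20, 0.16, 0.14, 0.11 and 0.016. Cox6a1 was above 0 in every mouse, and Cox5a was below 0 in mice 1 and 3. Among the restricted isoforms, Cox8b, the muscle isoform of subunit 8, had -0.20, -0.20, 0.10 and 0.035, a mean of -0.064 ± 0.16. Cox8c, a testis isoform, had 0.16, -0.54, 0.15 and -0.0002, a mean of -0.056 ± 0.33, and Cox6b2, also known from testis, had -0.074, -0.18, 0.11 and 0.079, a mean of -0.015 ± 0.13. Mouse 2, highest for 8 of the 10 other subunits, was lowest for 3 of these 6 isoforms, Cox8c, Cox6b2 and the testis isoform Cox7b2. It was highest for 2, Cox6a2 at 0.30 and Cox7a1 at 0.27. Cox7a1 and Cox6a2, both muscle isoforms, and Cox7b2 had means of 0.11, 0.10 and 0.0059. For Cox7b2 and Cox8c these means hide opposite values: -0.87 and 0.88 in the 2 orientations for Cox7b2, and -0.65 and 0.53 for Cox8c. Repeats of the same mouse and orientation differed with an SD of 1.09 for Cox7b2 and 0.69 for Cox8c, where the median member had 0.19. The ratios of these testis isoforms therefore carry little precision, and the difference between the groups of isoforms was not tested.

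**Figure D2:**
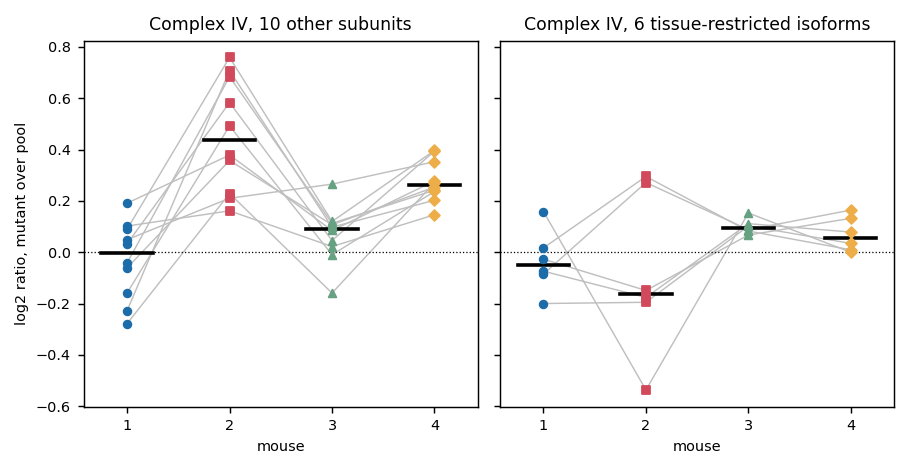
Log2 ratio (y axis, read as mutant over wild-type pool) of complex IV genes in mice 1 to 4 (x axis), with 10 common subunits on the left and 6 isoforms known from muscle or testis on the right; grey lines join the values of 1 gene and black bars are medians. The medians on the left are -0.0042, 0.44, 0.091 and 0.26, and on the right -0.050, -0.16, 0.095 and 0.057.

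Complex V had a median of 0.20, with 14 of 15 genes above 0 and 0.017, 0.45, 0.029 and 0.20 in mice 1 to 4. Without mouse 2 the median was 0.085, with 13 of 15 genes above 0. In the F1 head, Atp5b, the catalytic beta subunit, had 0.15, 0.60, 0.12 and 0.32, a mean of 0.30 ± 0.22 with an interval of 0.062 to 0.53. Atp5a1, the alpha subunit, had 0.013, 0.36, 0.12 and 0.26, a mean of 0.19 ± 0.15. Both were above 0 in all 4 mice and highest in mouse 2, and read as Cy5 over Cy3 they had 0.10 and -0.0041. Atp5e, the epsilon subunit of the central stalk, had 0.032, 0.21, -0.34 and -0.076, a mean of -0.044 ± 0.23, the only mean below 0 in the complex. Atp5c1, the rotating gamma subunit, had a mean of 0.20 ± 0.21. Atp5d, the delta subunit of the stalk, had 0.20 ± 0.72, the widest spread of all members: it was measured on 12 arrays, and those of mouse 1 ran from -5.32 to 3.09.

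The peripheral stalk, which holds the head against rotation, was above 0 for 4 of 4 genes. Atp5o, the subunit that confers oligomycin sensitivity, had 0.045, 0.22, 0.18 and 0.48, a mean of 0.23 ± 0.18, with mouse 4 highest. Its arrays of mouse 2 ran from -0.6945 to 0.765, so its order of mice is uncertain. Atp5pb and Atp5j, further stalk subunits, had means of 0.26 ± 0.35 and 0.10 ± 0.22. Atp5h, subunit d of the stalk, had -0.030, 0.069, -0.11 and 0.16, a mean of 0.022 ± 0.12. Mice 1 and 3 were below 0 for it and mice 2 and 4 above. Atp5g3, which encodes the c-ring protein that carries protons, had a mean of 0.24 ± 0.26.

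The small membrane subunits, which join the enzyme's dimers in the cristae, were above 0 for 5 of 5 genes, with -0.050, 0.50, 0.077 and 0.15 as medians in mice 1 to 4. Atp5md had 0.13, 1.01, 0.088 and 0.33, a mean of 0.39 ± 0.43, the highest of the 43 genes as read here. Read as Cy5 over Cy3 its mean was 0.11, below 0.28 for Atp5k, and without mouse 2 it was 0.18, below 0.23 for Atp5o. Mouse 2 alone was above 1, and the interval of -0.0090 to 0.79 included 0. Atp5mpl had -0.085, 0.31, 0.044 and 0.12, a mean of 0.095 ± 0.16. Atp5l, Atp5j2 and Atp5k had means of 0.21, 0.19 and 0.14. With the mutant in Cy3 the median of these 5 genes was -0.027, and with the mutant in Cy5 0.42.

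Differences among the 4 mutants passed the test for 1 of these genes. In the comparison between mice over all 16 arrays with a dye term, where the spread is that between arrays of the same RNA and thus technical, 1 member passed, Cox7c, 2.33% against 0.189% of 15856 rows (30). At an unadjusted p under 0.05 it was 20 members, 46.5%, against 11.2% of rows. The members' count was 7 without mouse 2, 3 with the ratios read as Cy5 over Cy3, 0 with repeat 1 alone, 9 with repeat 2 alone and 13 without a dye term. No share of all rows at that p is given for these alternatives. An adjusted p under 0.1 was reached by 5 members, Cox7c, Uqcrc2, Cox6c, Cox5a and Cox7b, and by 0.864% of rows.

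Cox7c, a small membrane subunit of complex IV, had -0.23, 0.71, 0.098 and 0.20 in mice 1 to 4, with an adjusted p of 0.0433 in limma's F-test. On single arrays it ran from -0.50 to 0.044 in mouse 1, from 0.50 to 0.93 in mouse 2, from 0.039 to 0.13 in mouse 3 and from -0.033 to 0.37 in mouse 4. As read here, the arrays of mouse 2 did not overlap with those of any other mouse. The call was lost with no centring (adjusted limma p 0.0588), with arrays scaled by their median absolute deviation (0.0801), without a dye term (0.0856), with the ratios read as Cy5 over Cy3 (0.955), with either repeat alone (0.92 and 0.818) and when any 1 mouse was left out (0.0991 to 0.513), and over all alternatives that p ran from 0.0367 to 0.955. Uqcrc2, the core subunit described above, and Cox6c, another small subunit of complex IV, had adjusted p-values of 0.0642 each, with -0.042, 0.68, 0.11 and 0.24 for Cox6c. Cox5a, a matrix-side subunit, had 0.0671 with -0.28, 0.23, -0.16 and 0.27, and Cox7b had 0.0712. Mouse 2 was highest for 4 of these 5 genes, and for Cox5a mouse 4 was.

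With the ratios read as mutant over pool, mouse 2 was the highest of the 4 for 32 of 43 members, 74.4%, against 31% of all rows, and mouse 1 the lowest for 24, 55.8%, against 24.7%. Mouse 3 was lowest for 15 members, 9 of them in complex V. Mouse 2 was above mouse 1 for 39 of 43 members and for 49.2% of rows. By complex this held for 4 of 4 genes in complex II, 7 of 8 in III, 13 of 16 in IV and 15 of 15 in V. The 4 exceptions were Uqcrc1, Cox6b2, Cox7b2 and Cox8c. This order depends on the inferred direction. Read as Cy5 over Cy3, mouse 2 was above mouse 1 for 7 of 43 members and 48.3% of rows, mouse 1 was highest for 23 members, and mouse 2 was lowest for 23. Every array of mouse 2 was above every array of mouse 1 for 10 members, against 4.11% of rows: Sdhb, Sdhd, Uqcr10, Uqcrc2, Uqcrq, Cox6c, Cox7b, Cox7c, Atp5b and Atp5l. Mouse 2 also had the widest spread over all rows, with a median absolute deviation of 0.24 against 0.15 in each of the others, and the fewest values per array. With each array scaled by its own median absolute deviation, mouse 2 was above mouse 1 for 40 of 43 members. The medians of mice 1 to 4 were then -0.0098, 0.31, 0.064 and 0.24. That scaling acted on single arrays and not on the values per mouse.

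**Figure D3:**
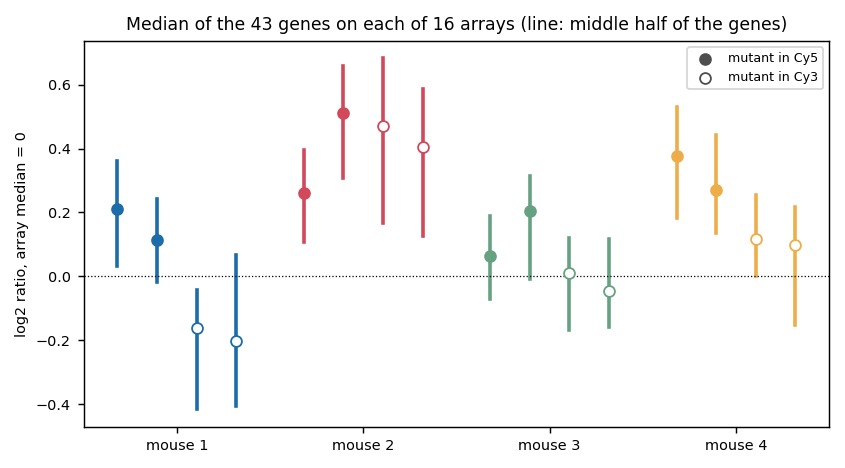
Median log2 ratio of the 43 genes (y axis, array median 0) on each of the 16 arrays, grouped by mouse (x axis), with the mutant in Cy5 (filled) or Cy3 (open); lines span the 25th to the 75th percentile of the genes. All 4 medians of mouse 2 lie between 0.26 and 0.51, while those of mouse 1 are 0.21 and 0.11 in Cy5 and -0.16 and -0.20 in Cy3.

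Dye orientation went with the size of these ratios. The median over members was 0.24 for a mutant labelled with Cy5 and 0.071 for one labelled with Cy3, where all rows had -0.019 and 0.026. Of the 43 genes, 26 were above 0 in both, 39 in Cy5 and 29 in Cy3. Of all 16140 rows, 3306 were above 0 in both, 7332 in Cy5 and 8928 in Cy3. The dye term passed its test (limma, adjusted p under 0.05) for 8 members, 18.6%, against 8.40% of rows. It was positive, thus higher with the mutant in Cy5, for Uqcrh, Uqcrq, Uqcr11, Cox5a, Atp5c1, Atp5k and Atp5l, and negative for Cox7b2. Atp5k had 0.42 in the Cy5 orientation and -0.15 in the Cy3 orientation, whereas Sdhd had 0.31 and 0.33 and Uqcrc2 0.26 and 0.26. Mouse 1 turned sign with the orientation: its median member had 0.16 in Cy5 and -0.13 in Cy3. Mouse 2 had 0.37 and 0.40, mouse 3 0.13 and -0.025, and mouse 4 0.31 and 0.098. Mouse 2 was above mouse 1 for 33 of 43 members with the mutant in Cy5 alone and for 38 of 43 with the mutant in Cy3 alone. The part of the dye in the ratios against the pool was not tested beyond these values.

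**Figure D4:**
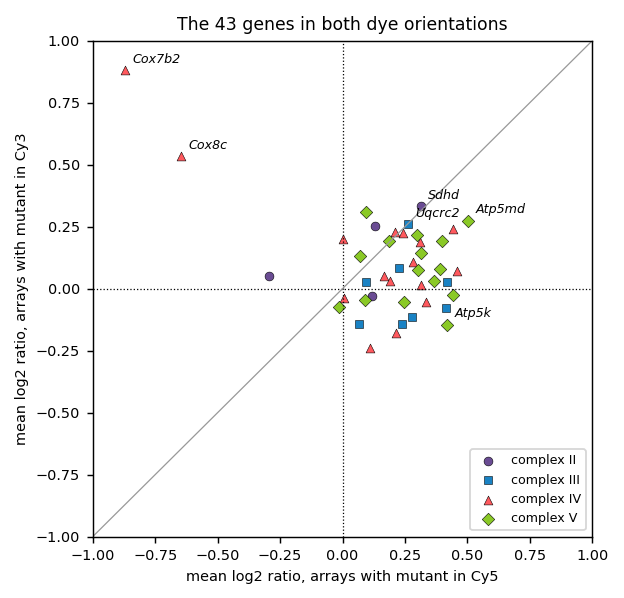
Mean log2 ratio of each of the 43 genes with the mutant in Cy5 (x axis) and in Cy3 (y axis), over 4 mice, coloured by complex; the diagonal marks equal values. Genes right of the vertical line and above the horizontal one, 26 of 43, are above 0 in both orientations, against 3306 of 16140 rows. Cox7b2 and Cox8c lie far from the rest at the upper left.

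Genes that work with these complexes were counted from lists drawn up beside the members. Of 10 carriers and partners of ATP synthesis, 8 were measured and 7 lay above 0, with a median of 0.20 and 0.034, 0.38, 0.19 and 0.27 in mice 1 to 4. Vdac1, the outer membrane channel, had 0.24, 0.64, 0.33 and 0.35, and Slc25a5, an ATP/ADP carrier, had 0.043, 0.46, 0.24 and 0.53. Both were above 0 in all 4 mice, with an adjusted limma p of 0.548 each. Of 38 assembly factors of complexes II to V, 26 were measured and 18 lay above 0, with a median of 0.041. It was -0.0012 with the mutant in Cy5 and 0.096 with the mutant in Cy3, where the subunits had 0.24 and 0.071. Surf1, needed for the assembly of complex IV, had 0.12, 0.55, 0.097 and 0.35, and Coa3, a factor for the same complex, 0.25, 0.60, 0.051 and 0.19. Of 15 regulators of mitochondrial biogenesis, 10 were measured and 6 lay above 0, with a median of 0.070. Yy1 had a mean of 0.18 ± 0.10 and Tfam, which binds mitochondrial DNA, 0.15 ± 0.17. No gene of the 3 lists passed the test against the pool.

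Markers of some kidney cell types varied with the members from mouse to mouse. Proximal tubule markers, 14 of 20 measured, were above 0 for 12, with a median of 0.21 and -0.078, 0.32, 0.12 and 0.25 in mice 1 to 4. Thick ascending limb markers, 7 of 9 measured, were above 0 for 5, with 0.14, 0.57, 0.10 and 0.29. Both lists were highest in mouse 2, as the members were with the ratios read as mutant over pool. Podocyte and endothelial markers, 7 of 11 measured, were above 0 for 7, with 0.057, 0.31, 0.10 and 0.15, and mouse 2 was highest for them too. Distal and collecting duct markers, 7 of 15 measured, were above 0 for 5, with 0.086, 0.089, 0.23 and 0.11, and mouse 3 was highest. Blood and immune markers were below 0 for 6 of 6 measured of 11, with a median of -0.051, and 11 of 14 markers of fat, muscle and adrenal had a median of -0.012. The latter median averages opposite values, -0.32 with the mutant in Cy5 and 0.28 with the mutant in Cy3. Their part in the members' ratios was not tested, and the arrays give no level by which a marker could be called absent.

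Of the 62 probes, 57 had values on all 16 arrays. Probes of the same gene differed by a median of 0.15 over the 13 members with several probes. Atp5a1, Atp5h, Atp5mpl and Cox7a1 had probes on both sides of 0. For Atp5h the 3 probe means were -0.19, 0.28 and -0.023, so that its mean near 0 averages unlike values. For Atp5a1 they were 0.35, 0.26 and -0.043. The means of the 4 probes of Cox4i1 were all above 0, at 0.27, 0.32, 0.17 and 0.17, as were both of Cox7b, at 0.38 and 0.30. By mouse the probes of Cox4i1 were less alike. In the same order they had -0.0050, 0.0935, 0.46 and 0.22 in mouse 1, and 0.29, 0.11, -0.0505 and -0.0045 in mouse 3.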

How the data were processed

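Per the labels' protocols, 20 µg of total RNA per channel was reverse transcribed and labelled with Cy3 or Cy5 by way of TIGR's indirect method. The authors deposited 1 ratio per probe and array, taken here as log2, with values for 19737 to 20228 of 20355 probes on an array. How background, normalisation, log base and direction were handled is stated by no label or header used here. The base was inferred from extreme values of 16.1 to 17.0 in size. The direction, mutant over pool, was inferred because their sign followed the dye: the 292 on arrays that held the mutant in Cy5 were positive and the 218 on the other arrays negative. Values over 10 in size were treated as missing, and 0 of these were members'. Arrays were centred on their median, repeats averaged within an orientation, then both orientations averaged. A row needed both orientations in at least 3 mice. Probes of 1 gene were averaged. Symbols came from the platform annotation, updated by gene identifier through RefSeq (GRCm38.p6): of 20355 probes, 14030 had 1 symbol, 5 several and 6320 none, and probes with several or none stayed unnamed. Without intensities, the signal over background is unknown, and the number of mice limits the precision.

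Means over 4 mice were tested against 0 in R 4.3.3 by limma 3.58.1's two-sided moderated test (lmFit, eBayes), with p-values adjusted after Benjamini-Hochberg over all rows and a threshold of 0.05. Differences between mice and the dye term were tested on 16 arrays with limma. The block fit used statmod 1.5.0. Scripts were tested on simulated data. Alternatives covered centring, scaling, probes, filters, direction, single orientations and repeats, the block, the prior, the dye term and leaving out each mouse; leaving out tissue-restricted isoforms, and the order of mice and members in the turned direction, were added after the data were seen.

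The members, lists and tests were chosen with earlier results of these data known. Values in every mouse were printed for complex II and, in each other complex, for the 4 genes with the smallest p and the 3 lowest means; Cox7c, Cox6c and Cox5a were added for the differences between mice. Outside the members the 2 genes with the smallest p of each list were named. The arrays of 1 mouse share its RNA, so the mouse is the replicate.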

Additional observations from a re-analysis of the deposited data

How the results depend on the processing

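The medians of all members and of each complex kept their sign under all alternatives run, except that of complex II read as Cy5 over Cy3 (-0.036) and that of complex III with the mutant in Cy3 alone (-0.026). Leaving out 1 mouse gave medians of all members from 0.077 to 0.22, and leaving out the tissue-restricted isoforms gave 0.19, or 0.21 in complex IV. The count of members that differed between mice went from 1 to 0 with no centring, with scaling by median absolute deviation, when read as Cy5 over Cy3, with repeat 1 alone, with repeat 2 alone and with no dye term, and was 0 to 0 with any 1 mouse left out. Over all rows that count went from 30 to 16 with scaling, 48 with every probe as its own row, 51 with probes measured on all arrays, 2 when read as Cy5 over Cy3, 0 with repeat 1 alone, 0 with repeat 2 alone, 5 with no dye term, and 5 to 15 with 1 mouse left out. Against the pool, the random block gave 2 members and 221 rows in place of 0. Its estimated correlation within mice was 0.036, so arrays of 1 mouse counted almost as independent replicates. Rows called were 12 when read as Cy5 over Cy3 and 3 with the mutant in Cy5 alone, all lower, and 1 with the mutant in Cy3 alone, higher. Read as Cy5 over Cy3, the order of mice 1 and 2 turned for most members. The cause of these changes was not tested. Means of single members moved by more than their spread, the SD over 4 mice, in 27 of 597 cases and stayed within it in 570. A mean could change sign within that spread. The sign changed for 12 of 43 members with the mutant in Cy3 alone and for 12 when read as Cy5 over Cy3. It changed for 7 without mouse 2, and for at most 4 under the other alternatives counted. Cytochrome c had no measured gene and so no value. No paired analysis was possible because each mouse was set against the same pool.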
